A study of Mus musculus with 5 samples.

Results

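Olfactory receptor genes were examined for CpG methylation in the leukemic blasts of 5 mice with acute myeloid leukemia (AML). The members are the protein-coding genes of the mouse annotation GENCODE vM21 whose symbol begins with Olfr, which gave 1135 of 21755 protein-coding genes on the autosomes and the X chromosome. They lie on 18 chromosomes, with 294 on chromosome 2, 244 on chromosome 7, 132 on chromosome 9 and 7 on X. Of these symbols, 41 carry the ending -ps. Whole-genome bisulfite sequencing (WGBS) was done on 2 libraries labelled Cebpa-/p30 Tet2+/+ (libraries 23 and 24) and 3 labelled Cebpa-/p30 Tet2-/- (libraries 5, 7 and 8), and the comparison asks how loss of TET2 changes methylation in Cebpa-mutant AML. All 5 libraries hold AML blasts from bone marrow of C57BL/6 mice, and both groups lack one Cebpa allele and carry the p30 allele, which makes the short C/EBPα isoform. By the study's methods, the floxed alleles were deleted with Mx1-Cre, induced by poly(I:C) after bone marrow had engrafted in lethally irradiated recipients, and live donor-derived blasts negative for the T cell, B cell and erythroid surface markers were sorted. Mx1-Cre is active in many hematopoietic cells and not only in the cell of origin. The labels give no age and no batch. By the study's reporting summary each donor mouse was represented by several recipients, and nothing states which of these libraries, if any, share a donor. The p-values therefore measure only the spread between these libraries.

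Olfactory receptors are G-protein-coupled receptors of the sensory neurons of the nose, and they form the largest gene family of the mouse. They sit in dense clusters, and each mature neuron transcribes a single receptor allele while the others stay in compact heterochromatin. Blood cells are not known to use most of them, so the family is a large set of mostly silent, CpG-poor genes, in contrast to the CpG island promoters of most genes. Class I receptors are the older, fish-like class, which in the mouse lie in 1 stretch of chromosome 7 around the beta-globin genes, and class II receptors make up all the other clusters. TET2 oxidises 5-methylcytosine to 5-hydroxymethylcytosine, a step on the way to demethylation. Bisulfite sequencing reads both forms as methylated, so every level given here is their sum.

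The DNA in front of receptor genes shows what was measured. For 4 receptors, the 300 bases that hold the most CpGs within the 1000 bases before the annotated transcription start site (TSS) were read from RefSeq's GRCm38.p6 sequence, and capitals mark each CpG. Olfr1033 is shown because its TSS had the lowest methylation among the receptors, Olfr1393 and Olfr279 because their TSS regions were the ones that passed the test between genotypes, and Olfr544, a class I receptor for azelaic acid that is also found in fat and liver, because its gene window passed the test while its TSS did not. None of the 4 stretches overlaps an annotated exon.
Olfr1033, chr2:86020333-86020632, plus strand: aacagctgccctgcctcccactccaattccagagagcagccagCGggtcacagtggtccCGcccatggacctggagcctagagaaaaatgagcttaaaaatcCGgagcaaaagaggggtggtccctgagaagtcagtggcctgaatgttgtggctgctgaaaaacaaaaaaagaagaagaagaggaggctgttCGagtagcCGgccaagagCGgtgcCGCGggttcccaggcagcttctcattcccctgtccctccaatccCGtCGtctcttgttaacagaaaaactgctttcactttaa
Olfr1393, chr11:49278004-49278303, plus strand: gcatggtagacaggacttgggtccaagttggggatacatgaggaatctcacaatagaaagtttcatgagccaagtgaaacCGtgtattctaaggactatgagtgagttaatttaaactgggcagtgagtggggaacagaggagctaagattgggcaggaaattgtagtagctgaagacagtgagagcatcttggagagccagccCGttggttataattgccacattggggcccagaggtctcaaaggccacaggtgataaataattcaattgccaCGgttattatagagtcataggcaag
Olfr279, chr15:98492100-98492399, plus strand: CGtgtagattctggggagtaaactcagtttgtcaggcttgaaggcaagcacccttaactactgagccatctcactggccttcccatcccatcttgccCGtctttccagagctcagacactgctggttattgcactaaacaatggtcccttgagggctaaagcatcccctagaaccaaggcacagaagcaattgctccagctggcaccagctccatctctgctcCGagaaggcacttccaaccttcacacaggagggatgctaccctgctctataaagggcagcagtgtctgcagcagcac
Olfr544, chr7:102488676-102488975, minus strand: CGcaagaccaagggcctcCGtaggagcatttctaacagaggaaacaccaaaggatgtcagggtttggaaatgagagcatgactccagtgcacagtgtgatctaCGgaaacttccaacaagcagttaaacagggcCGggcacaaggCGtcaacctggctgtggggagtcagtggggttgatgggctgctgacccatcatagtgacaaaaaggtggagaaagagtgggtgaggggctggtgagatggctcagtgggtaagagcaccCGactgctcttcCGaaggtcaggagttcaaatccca

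The stretch of Olfr1033 holds 10 CpGs, that of Olfr544 holds 7, and those of Olfr1393 and Olfr279 hold 3 each. In Olfr1033, 2 of 55 calls were methylated in library 23 (3.64%, exact binomial 95% interval 0.443 to 12.5%) and 2 of 37 in library 5 (5.41%, 0.661 to 18.2%). Library 24 had 0 of 38 calls, library 7 had 0 of 43 and library 8 had 0 of 20. Taken as 3 calls, a count of 0 allows up to 7.89%, 6.98% and 15%, and the exact intervals run up to 9.25%, 8.22% and 16.8%. Not every CpG of this stretch had a call in every library: library 5 had none at 3 of the 10, and libraries 23 and 8 had none at 1. In Olfr1393, 3 of 12 and 4 of 14 calls were methylated in the Tet2+/+ libraries (25% and 28.6%), against 9 of 12, 15 of 18 and 3 of 7 in the Tet2-/- libraries (75.0%, 83.3% and 42.9%). In Olfr279 the numbers were 10 of 16 and 8 of 17 (62.5% and 47.1%) against 30 of 37, 25 of 31 and 15 of 16 (81.1%, 80.6% and 93.8%). The genotypes did not overlap in either stretch, with as few as 7 calls in a library. Both stretches lie in TSS regions picked because they passed the test, so this is not separate support. Exact 95% intervals overlapped between genotypes. In Olfr1393 they were 8.39 to 58.1% in library 24 and 9.90 to 81.6% in library 8. In Olfr279 they were 35.4 to 84.8% in library 23 and 62.5 to 92.5% in library 7. In Olfr544, 82.1% and 75.0% of calls were methylated in the Tet2+/+ libraries and 76.9%, 96.7% and 60.9% in the Tet2-/- libraries, and there the genotypes overlapped. The intervals and limits cover counting error only, and they treat calls as independent. Calls at neighbouring CpGs can come from the same read, so the intervals and limits may be too narrow. A call is a read at a CpG and not a counted molecule.

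A receptor promoter holds few CpGs. In the 250 bases before the TSS, 640 of 1135 Olfr genes (56.4%) had at least 1 CpG, against 92.5% of all 21755 genes, and the median was 1 CpG against 8. The median G+C content of that stretch was 37.2% in Olfr genes and 54.0% in all genes. Letter patterns linked to receptor promoters were searched there on both strands. TAATTA, the core that homeodomain factors such as LHX2 and EMX2 bind, was in 255 Olfr stretches (22.5%) and in 4.91% of all stretches. The site of the EBF (olfactory-1) factors, searched as TCCC, 2 bases of any kind and GGGA, was in 25 (2.20%) and in 0.901%, and the TATA box TATAAA was in 337 (29.7%) and in 11.5%. The shares were not corrected for the lower G+C content of Olfr stretches, and stretches of like base content were not searched. They therefore do not show an excess of these sites in receptors. These matches describe letters, and an annotated receptor TSS is often imprecise. The TSS was at the start codon itself in 69 members, within 1 kb of it in 182 and a median of 3009 bases from it.

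Few CpGs mean few calls, and this sets which receptors could be compared. A CpG dyad is the pair of cytosines on both strands at 1 CpG, and a level is the percentage of methylated calls over all dyads of a region. The gene window, which is the gene with 5 kb on each side, held a median of 70 dyads in Olfr genes against 370 in all genes, or 4.32 against 11.6 per kb. The TSS region, which is 1 kb on each side, held 7 against 62. With at least 20 calls required in every library, 1133 members could be tested by window, all but Olfr247 and Olfr1506, and 367 could be tested at the TSS, so that 768 could not. Tested windows had 31 to 3781 calls per library (median 219), and tested TSS regions had 20 to 426 (median 44). Just inside the TSS minimum were Olfr1325, Olfr1320 and Olfr381 with 20 calls in the thinnest library, and just outside it were Olfr763, Olfr930 and Olfr926 with 19.

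The 5 libraries as a whole held 63111735 to 110752967 calls over 21353092 dyads, 2.96 to 5.19 per dyad. Over the genome, 67.3% and 62.3% of calls were methylated in the Tet2+/+ libraries and 70.9%, 74.8% and 68.4% in the Tet2-/- libraries. Calls in the floxed segment of Tet2 numbered 121 and 150 in the Tet2+/+ libraries and 0 in each Tet2-/- library, as the labels say. Olfr windows were covered less than other gene windows, with 2.48 to 4.16 against 3.23 to 5.82 calls per dyad, and reads that fit several near-identical receptors may be missing or misplaced, which was not tested. The TSS regions of 8 genes of the sorted myeloid cells had a median level of 11.9%, with means over the libraries from 1.32% in Prtn3 to 45.5% in Elane. Those of 4 olfactory neuron genes had a median of 47.5%. The 4 ranged widely, with means over the libraries of 88.5% in Omp, the marker of mature olfactory neurons, 59.6% in Cnga2, 35.3% in Gnal and 6.80% in Adcy3. Between genotypes, the gene windows of 2 of the 8 myeloid genes, of 0 of the 4 neuron genes and of the T cell genes Cd3e (16.8 points) and Cd3g (12.1 points) rose by the edgeR test used for the receptors, beside 19.3% of all windows, and their part in the receptors' values was not tested. In sorted bulk cells, a shift in the share of cells with a methylated allele and a shift in every cell cannot be told apart.

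Receptor windows were mostly methylated in every library, and the mean level was higher in Tet2-/- blasts, but not beyond the spread between libraries. Over the 1126 autosomal members the mean window level was 66.9% in library 23 and 60.3% in library 24, against 70.4%, 75.3% and 65.2% in libraries 5, 7 and 8. Library 8 lay below library 23, so the groups overlapped. The group means were 63.6% ± 4.63 (SD, n = 2) for Tet2+/+ and 70.3% ± 5.08 (SD, n = 3) for Tet2-/-, a difference of 6.68 percentage points (exact two-sided permutation test, p = 0.3; the smallest p that 2 against 3 libraries allow is 0.1, so that p under 0.05 could not be reached). Library 24 weighs on this value, since without it the difference was 3.40 points and without library 23 it was 9.95. Because 638 members have a window that overlaps that of another member, the windows were also joined into stretches that count each dyad once, and over the 724 autosomal ones the difference was 6.63 points (exact permutation p = 0.3).

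**Figure D1:**
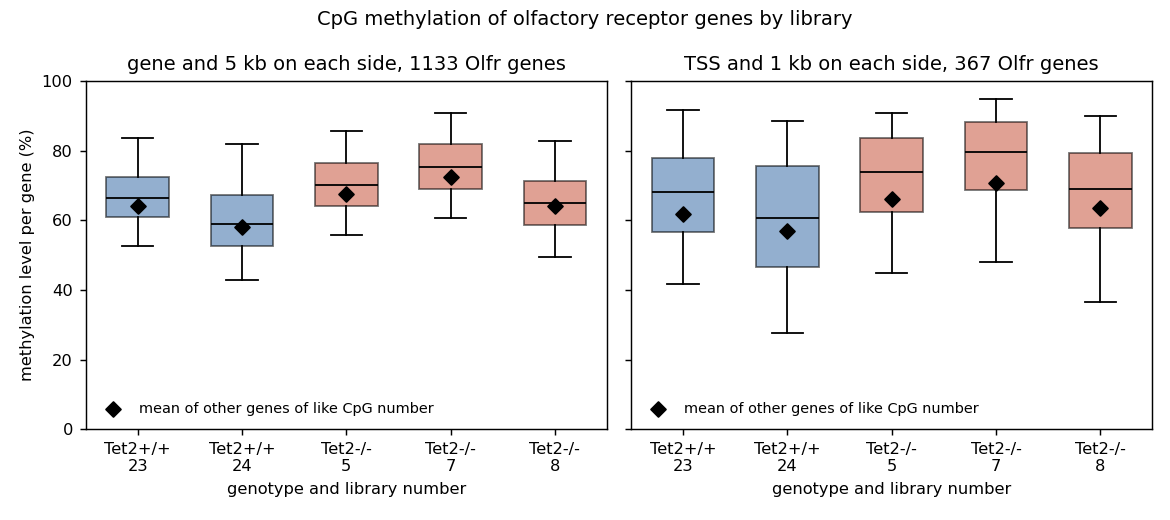
Methylation level per gene in percent (y axis) of Olfr gene windows (left) and TSS regions (right) in the 5 libraries (x axis), with boxes for the quartiles over members, a line for the median, whiskers to the outermost members within the 5th and 95th percentiles, and diamonds for the mean of other genes of like CpG number. The median window level was 66.4% and 59.1% in libraries 23 and 24 and 70.3%, 75.2% and 64.9% in libraries 5, 7 and 8, and library 8 sat below library 23.

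The order of the libraries was shared by most receptors. Library 24 was the lowest of the 5 in 754 members (66.5%) and library 7 the highest in 873 (77.1%). Library 8, a Tet2-/- library and the least deeply sequenced, was below library 23 in 673 members (59.4%), as against 38.4% of other genes and 51.5% of other genes of like CpG number. Among the single members, the mean level over the 5 libraries ran from 38.6% to 91.9% with a median of 67%, beside a median of 65.4% for all genes tested, and 90.6% of members were under 80%. The difference between genotypes had a median of 6.61 points, with 90% of members between -2.29 and 15.5, beside a median of 5.18 over all genes. It was above 0 in 1014 members (89.5%) and below 0 in 119, while 91.7% of all genes were above 0. Members richer in CpGs tended to be more methylated: dyads per kb against the mean level gave Pearson r = 0.253 and Spearman rho = 0.382 over 1133 members, which share libraries and, in part, windows.

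Other genes with as few CpGs had window levels within a few points of the receptors and a difference between genotypes of similar size. Other autosomal genes were weighted to the dyad numbers of the receptors in 10 classes, and they had window levels of 64.3% and 58.0% in the Tet2+/+ libraries and 67.6%, 72.4% and 64.0% in the Tet2-/- libraries. Olfr windows lay above them in each library, by 2.63, 2.37, 2.75, 2.95 and 1.19 points in libraries 23, 24, 5, 7 and 8, a mean of 2.38 (exact sign-flip permutation test over the 5 libraries, p = 0.063, the smallest it can give, which cannot pass 0.05). The gap was widest in the class with the most CpGs, which runs from 127 to 1059 dyads, where the 115 Olfr windows averaged 71.9% and 14971 other windows 60.3%. In the other 9 classes the excess was 0.0984 to 3.70 points. Without that class it was 1.34 points, and with 50 narrower classes it was 1.89. The difference between genotypes was 6.68 points in Olfr windows and 6.88 in the matched windows, so that the gain of the receptors differed from theirs by -0.20 points (exact permutation p = 1.0). The sign of that small value changed with the processing. It was 0.333 without library 8, 0.354 with calls pooled over windows and 0.390 with matching on CpG density. It also joins unlike classes. In the class with the most CpGs the difference between genotypes was 8.10 points in Olfr windows and 5.55 in other windows. In the other 9 classes it was 5.56 to 7.14 points in Olfr windows and 6.26 to 8.11 in other windows.

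Single receptors passed the test only in 1 direction. By edgeR's quasi-likelihood test with Benjamini-Hochberg adjustment over all 21453 gene windows, 81 of 1133 Olfr windows (7.15%) rose in Tet2-/- blasts, beside 19.3% of all windows and 6.45% of other windows of like CpG number. None of the Olfr windows fell, beside 0.00932% of all windows, and 201 Olfr windows had an unadjusted p under 0.05 in either direction. In 383 members (33.8%) every Tet2-/- library was above both Tet2+/+ libraries, beside 49.7% of all windows and 38.6% of those of like CpG number. In 3 members (0.265%) every Tet2-/- library was below, beside 0.746% of all. The 81 calls depend on library 24: without it 0 Olfr windows passed, and 0.233% of all windows did. Without library 5 the count was 24 (beside 9.77% of all windows), without library 7 it was 27 (11.2% of all), without library 8 it was 132 (19.2%) and without library 23 it was 58 (18.3%). With limma on log2 ratios of methylated to unmethylated calls none of the 21453 windows passed after adjustment, while 363 Olfr windows had an unadjusted p under 0.05. The share of all windows under that p was not counted for either test. The 201 and 363 windows therefore cannot be set against other genes.

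**Figure D2:**
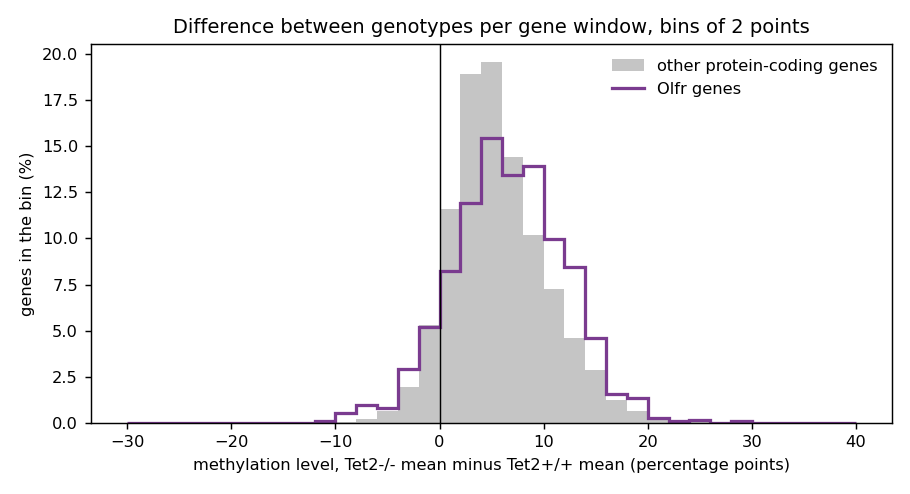
Share of gene windows in percent (y axis) by the difference in methylation level, Tet2-/- mean minus Tet2+/+ mean in percentage points (x axis, bins of 2 points), for Olfr genes (line) and other protein-coding genes (grey). The median of the 1133 Olfr windows was 6.61 points, 119 lay below 0, and the 81 that passed the test lay between 8.43 and 29.4.

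The 81 windows that rose had differences of 8.43 to 29.4 points, with a median of 15.5, while the 1052 others had a median of 6.04. They were picked by the test on this same difference. Its size, their higher Tet2-/- level and groups that do not overlap therefore follow largely from the choice. Windows that passed held more CpGs, with a median of 116 dyads against 69. Their median level was 62.9% in Tet2+/+ and 77.4% in Tet2-/- blasts, and that of the others 62.6% and 69.1%. Of the 81, 73 had groups that did not overlap, 17 were among the 129 class I receptors tested and 64 among the 1004 class II receptors, beside the 19.3% of all windows. When each library was left out in turn, 19 passed in every fit except the one without library 24.

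The receptor with the largest difference among those that passed was Olfr907, a class II receptor at chr9:38495801-38499882. Its window level was 55.6% and 39.7% in the Tet2+/+ libraries and 69.9%, 87.1% and 73.9% in the Tet2-/- libraries. That is a difference of 29.4 points (edgeR quasi-likelihood adjusted p = 0.00927). Every Tet2-/- library lay above both Tet2+/+ libraries, which was a condition for all windows named for the largest differences. Without library 7 the difference of Olfr907 was 24.3 points and the call was lost (edgeR adjusted p = 0.0737). Without library 24 the difference was 21.4 points. The window is thinly covered, with 46 to 73 calls per library, and the exact 95% interval of library 24 ran from 27.0 to 53.4%. Olfr156 on chromosome 4 rests on 497 to 871 calls per library. It had 51.2% and 46.4% against 71%, 81.2% and 71.6%, a difference of 25.8 points (edgeR adjusted p = 3.9e-05), and it lost its call without library 24 (difference 23.4 points, edgeR adjusted p = 0.112). Olfr1283 on chromosome 2 had 42% and 42.9% against 60.5%, 81.8% and 57.8%, a difference of 24.3 points (edgeR adjusted p = 0.0188), with library 7 well above the other Tet2-/- libraries. Without library 7 that difference was 16.7 points, and the call was lost without library 7 (edgeR adjusted p = 0.230), 5 (0.0547), 23 (0.116) or 24 (0.328).

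Among class I receptors the largest differences that passed were in Olfr243 and Olfr611, both in the chromosome 7 cluster. Olfr243 had 59.6% and 49.3% in the Tet2+/+ libraries and 70.8%, 79.8% and 81.7% in the Tet2-/- libraries, a difference of 23 points (edgeR adjusted p = 0.00848). Olfr611 had 68.1% and 54.7% against 73.9%, 91.8% and 78.4%, a difference of 19.9 points (edgeR adjusted p = 0.00672). In both the groups did not overlap, which was a condition for being named here. Without library 24 Olfr611 differed by 13.2 points. Olfr243 differed by 6.32 points with no flank (edgeR adjusted p = 0.682) and by 13.1 with 10 kb flanks (edgeR adjusted p = 0.0581). The other class II receptors with the largest differences that passed were Olfr331 (21.6 points), Olfr368 (21.0), Olfr1484 (20.1), Olfr1289 (19.9) and Olfr843 (19.5). Olfr368 on chromosome 2 was the most even within groups: its levels were 52.2% and 49.9% in Tet2+/+ and 71.6%, 75.3% and 69.3% in Tet2-/- blasts (edgeR adjusted p = 0.00349). Without library 24 the differences were 13.6 points in Olfr331, 12.7 in Olfr1484 and 13.2 in Olfr1289. The flanks mattered too: Olfr1484 differed by 8.14 points with no flank and 9.63 with 10 kb flanks, and Olfr907 by 17.7 with 10 kb flanks. Among the named windows that rose, 5 lost their call with no flank (Olfr907, Olfr243, Olfr1484, Olfr1289 and Olfr843) and 4 with 10 kb flanks, the same ones except Olfr1289. Olfr1283 and Olfr331 did not pass the minimum of calls with no flank and could not be tested there.

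**Figure D3:**
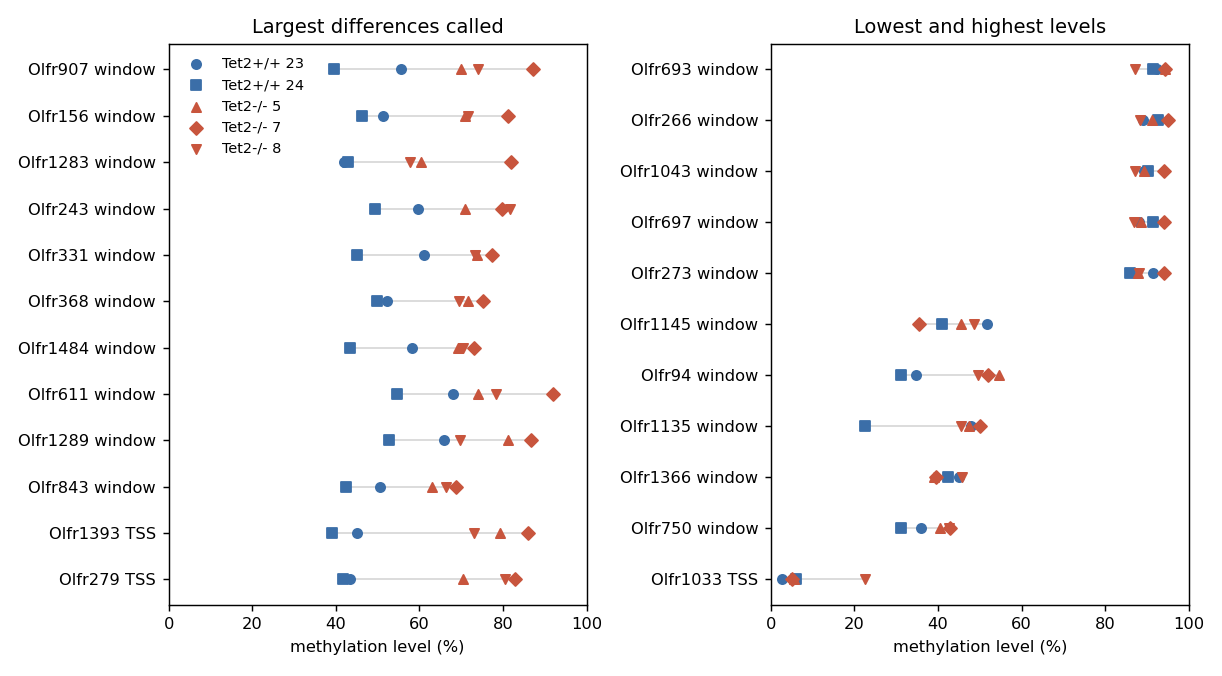
Methylation level in percent (x axis) of the windows and TSS regions with the largest differences that passed the test (left) and of those with the lowest and highest levels (right), 1 row per region and 1 marker per library, blue for Tet2+/+ and red for Tet2-/-. Olfr907 had the largest window difference, 29.4 points, while the windows of Olfr693 and the others near 90% had overlapping groups and Olfr1033 stood at 2.74 to 22.5%.

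The least methylated receptor windows were those of Olfr750 (mean 38.6% over the 5 libraries), Olfr1366 (42.3%), Olfr1135 (42.7%), Olfr94 (44.4%) and Olfr1145 (44.5%). Of these, Olfr94 on chromosome 17, in the receptor cluster near the major histocompatibility complex, passed the test. Its levels were 34.6% and 31.1% in the Tet2+/+ libraries and 54.6%, 52.0% and 49.5% in the Tet2-/- libraries, a difference of 19.2 points (edgeR adjusted p = 0.00111) with no overlap. Olfr750 had 35.9% and 31.1% against 40.6%, 42.9% and 42.5%, and this difference of 8.53 points did not pass (edgeR adjusted p = 0.0674). In Olfr1366 and Olfr1145 the group means differed by -2.29 and -3.23 points with overlapping libraries. These low levels depended on the flanks. Without flanks, Olfr750 stood at 72.0% and Olfr1366 at 72.5%, while Olfr1135 stood at 48.1%, Olfr94 at 32.5% and Olfr1145 at 32.0%, and with 10 kb flanks Olfr1366 stood at 54.7% and Olfr1135 at 57.2%. The most methylated windows were those of Olfr693 (91.9%), Olfr266 (91.2%), Olfr1043 (90%), Olfr697 (89.8%) and Olfr273 (89.4%). In these 5 the difference was 0.0248 to 1.31 points, with levels of 85.9 to 95% in every library.

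Receptors used as models or studied outside the nose were taken as a fixed list of 11 found in the annotation, with Olfr1033 added because the study's RNA lists for these leukemias hold it. Of these 12 windows, 2 rose, beside 19.3% of all windows and 6.45% of those of like CpG number. Olfr544 had 69.4% and 64.6% in the Tet2+/+ libraries and 79.2%, 87.0% and 81.9% in the Tet2-/- libraries, a difference of 15.7 points (edgeR adjusted p = 0.00149). Olfr1393, which in the kidney takes part in glucose handling, had 74.7% and 73.0% against 84.7%, 90.5% and 83.1%, a difference of 12.2 points (edgeR adjusted p = 0.0111). In both, every Tet2-/- library lay above both Tet2+/+ libraries. The window call of Olfr1393 was lost without library 5 (12.9 points, edgeR adjusted p = 0.0581) and without library 7 (10.0 points, edgeR adjusted p = 0.0608).

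Olfr78, a class I receptor for short-chain fatty acids found in the carotid body and blood vessels, did not pass. Its window had 70.2% and 58.6% against 75.0%, 77.3% and 62.3%, with overlapping groups (difference 7.16 points, edgeR adjusted p = 0.275). Its neighbour Olfr558, a receptor for short branched acids, had 66.3% and 59.2% against 70.8%, 79.2% and 74.0% (difference 11.9 points, edgeR adjusted p = 0.0795). Here the groups did not overlap, but the test was not passed. Olfr15 had 49.1% and 44.1% against 52.9%, 63.2% and 54.1% (difference 10.1 points, edgeR adjusted p = 0.0911). Olfr2, the octanal receptor also called I7, differed by 6.75 points, Olfr16, a receptor for lyral that is also found in sperm, by 9.19, Olfr73, the eugenol receptor, by 12.5, Olfr17, also called P2, by 3.16, Olfr160, also called M72, by 7.22, and Olfr1507, also called MOR28, by 2.91. None of these passed the test, and several rest on 1 library: with a library left out the difference went down to 1.18 points in Olfr160, 1.35 in Olfr78 and 1.90 in Olfr2 (each without library 24), to 6.92 in Olfr73 (without library 7) and to 1.58 in Olfr17 (without library 5). Without library 7, Olfr1507 differed by -0.0210 points. Olfr1507 was the most methylated of the list, with 83.2% and 79.4% against 85.8%, 90.1% and 76.8%.

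Of the 119 receptors with a lower mean in Tet2-/- blasts, none passed the test. Those named here were singled out after their values were seen. Olfr1329 had 85.8% and 83.9% in the Tet2+/+ libraries and 82.6%, 73.5% and 67.4% in the Tet2-/- libraries, a difference of -10.4 points (edgeR adjusted p = 0.128) with groups that did not overlap. The genes on either side of it at the end of a chromosome 4 cluster, Olfr1330 and Olfr1328, differed by -9.95 and -8.60 points, and in each of the 3 genes libraries 7 and 8 were the low ones while library 5 was near the Tet2+/+ libraries. Olfr1328 fell by 13.3 points with no flank (edgeR adjusted p = 0.0343) and by 11.1 with 10 kb flanks (edgeR adjusted p = 0.0305), but did not pass with the 5 kb flanks used here (edgeR adjusted p = 0.0999). Olfr871, elsewhere, differed by -8.98 points. The other members with every Tet2-/- library below both Tet2+/+ libraries were Olfr1029 (-7.12 points) and Olfr1030 (-5.93), which are neighbours on chromosome 2.

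Receptor TSS regions were methylated, unlike those of most genes. Over the 363 autosomal members tested, the mean TSS level was 67% and 59.9% in the Tet2+/+ libraries and 71.4%, 76.6% and 67% in the Tet2-/- libraries, while all other autosomal genes had 27.0% and 24.9% against 30.1%, 31.5% and 30.2%. Only 3 of 367 members (0.817%) had a TSS level under 20%, against 55% of other genes and 4.32% of other genes of like CpG number. Under 40% were 13 members (3.54%), against 68.3% and 13.1%. Against other genes of like CpG number, the receptors lay above in each library, by 5.19, 3.0, 5.21, 5.77 and 3.58 points in libraries 23, 24, 5, 7 and 8, a mean of 4.55 (exact sign-flip permutation p = 0.063). This excess was 3.49 without the class of the most CpGs, 4.17 with 50 classes and 0.486 when regions were centred on the start codon, while it was 10.1 with at least 50 calls and 9.63 with 500 bp on each side. The group means were 63.4% ± 5.01 (SD, n = 2) for Tet2+/+ and 71.7% ± 4.79 (SD, n = 3) for Tet2-/-, a difference of 8.26 points (exact permutation p = 0.2). Without library 24 it was 4.62 points and without library 23 it was 11.8. The matched genes differed by 7.51 points.

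Few TSS regions passed the test. By the same edgeR test over 19455 TSS regions, 2 of 367 Olfr regions (0.545%) rose, beside 1.06% of all regions and 0.490% of those of like CpG number. None fell, beside 0.0154% of all. An unadjusted p under 0.05 was found in 54 Olfr regions, and the share of all regions under it was not counted. Every Tet2-/- library was above both Tet2+/+ libraries in 103 members (28.1%), beside 32.8% of all regions and 32.2% of those of like CpG number, and below in 5 (1.36%), beside 4.05% of all. Around the TSS of Olfr1393 at chr11:49277304-49279304, which holds 15 dyads, the level was 45.2% and 39.1% against 79.3%, 85.9% and 73.2%. The difference was 37.3 points (edgeR adjusted p = 0.0435), and the exact 95% intervals ran up to 58.3% in Tet2+/+ and down to 57.1% in Tet2-/- libraries. Around the TSS of Olfr279 at chr15:98491402-98493402, with 17 dyads, it was 43.4% and 41.8% against 70.4%, 83.0% and 80.6%, a difference of 35.4 points (edgeR adjusted p = 0.0473). In both regions the groups did not overlap, which was a condition for being named here. They were also picked by the test on this same difference. The printed stretches lie inside these regions. The calls of Olfr1393 and Olfr279 depended on the settings: with limma the adjusted p was 0.0564 and 0.0575, and of the fits that left out 1 library, only the one without library 5 kept a call (Olfr279, edgeR adjusted p = 0.0405). With regions centred on the start codon, 5 of 689 receptors tested passed instead (0.726%, beside 1.88% of all such regions), Olfr544, Olfr750, Olfr368, Olfr214 and Olfr329-ps. Of the fixed list, the TSS regions of Olfr558 (difference 9.31 points), Olfr16 (6.71), Olfr544 (5.46) and Olfr1507 (-2.33) could also be tested, and none passed. With 1 library left out the difference went down to 3.35 points in Olfr558 (without library 23), 1.82 in Olfr16 (without library 5) and 1.75 in Olfr544 (without library 7).

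The lowest TSS level among the receptors was that of Olfr1033. Its TSS region, with 35 dyads, had 2.74% and 5.97% in the Tet2+/+ libraries and 5.45%, 5.13% and 22.5% in the Tet2-/- libraries. Library 8, the thinnest with 40 calls there, stood above the others (exact 95% interval 10.8 to 38.5%), and the difference of 6.67 points did not pass (edgeR adjusted p = 0.501) and was 0.936 without library 8. The start codon of Olfr1033 lies 20684 bases further along, and the window as a whole was methylated like other receptors, at 69.1% and 67.9% against 70.5%, 76.2% and 64.9%. The next lowest were Olfr433 (mean 17.0%), Olfr312 (19.2%) and Olfr432 (20.5%), whose TSS lie 1170 to 1919 bases from the start codon. Olfr433 and Olfr432 are neighbours on chromosome 1.

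**Figure D4:**
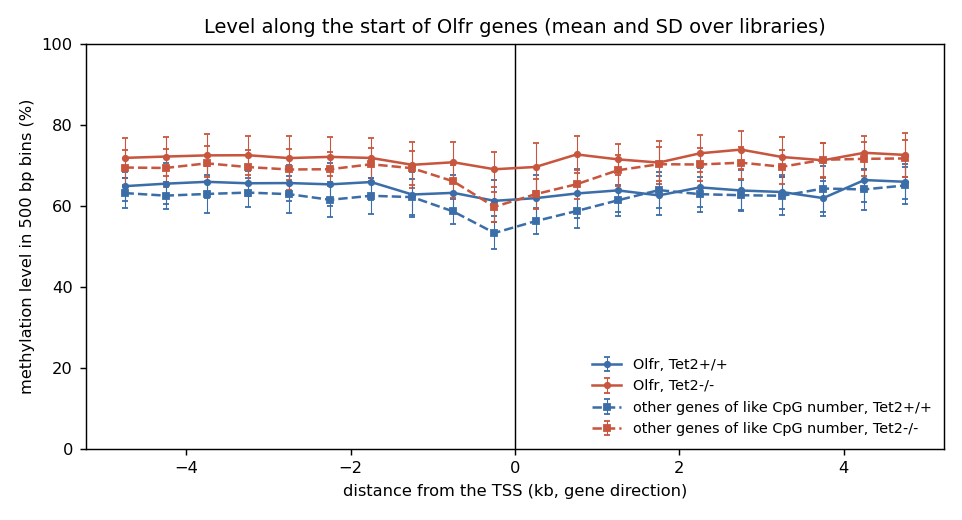
Methylation level in percent (y axis) in 500 bp bins by distance from the TSS in kb (x axis), for Olfr genes (solid) and other genes of like CpG number (dashed), as the mean and SD over the 2 Tet2+/+ libraries (blue) and the 3 Tet2-/- libraries (red). Just before the TSS the receptors averaged 65.9% and the matched genes 57.2% over the 5 libraries, a gap that was 2.63 points without the class of the most CpGs.

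Along the gene, the pooled level of receptors dipped at the TSS, from a mean of 69.3% over the libraries in the bin that starts 3000 bp before it to 65.9% in the 500 bp before it. Genes of like CpG number had 66.6% and 57.2% there. In the 500 bp before the TSS the gap was 8.69, 7.20, 9.43, 9.76 and 8.64 points in libraries 23, 24, 5, 7 and 8 (mean 8.75, exact sign-flip permutation p = 0.063). Without the class of the most CpGs the receptors went from 69.2% to 64.9% and the matched genes from 66.6% to 62.3%. The gap before the TSS was then 2.63 points. In the 500 bp after it the receptors were on average 1.65 points below the matched genes (64.3% against 65.9%). By library that gap was 0.523, -3.72, -1.33, 0.230 and -3.93 points in libraries 23, 24, 5, 7 and 8 (exact sign-flip permutation p = 0.25). With all classes the sign of the mean in that bin was the other way, at 66.5% in the receptors and 60.2% in the matched genes. Of coding sequence, other exons, introns and flanks, coding sequence was the most methylated. Its pooled level was 70.2% and 64.0% in the Tet2+/+ libraries and 75.2%, 79.8% and 71.4% in the Tet2-/- libraries, while the flanks outside exons had 66.5% and 60.3% against 70.1%, 75.0% and 65.1%. Coding sequence lay above the flanks by 3.74, 3.74, 5.09, 4.85 and 6.21 points in libraries 23, 24, 5, 7 and 8, a mean of 4.73 (exact sign-flip permutation p = 0.063). In these pooled calls each Tet2-/- library had a wider gap than both Tet2+/+ libraries (difference 1.65 points, exact permutation p = 0.1, the smallest possible), but taken within members the groups overlapped. Over the 835 members that had at least 10 calls in both parts, the gap was 2.72 and 2.84 points in the Tet2+/+ libraries and 2.74, 2.45 and 4.41 in the Tet2-/- libraries, a mean of 3.03 and a difference of 0.422 between genotypes. Introns and non-coding exons had 69.2% and 68.1%.

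The bases next to a CpG went with its level. In Olfr windows, CpGs with A or T on both sides averaged 58.0% over the libraries and those with C or G on both sides 78.8%, and other windows of like CpG number had 57.6% and 75.8%. Between genotypes, CpGs of Olfr windows flanked by A or T differed by 7.99 points (exact permutation p = 0.3). Those flanked by C or G differed by 5.62 (exact permutation p = 0.2). In the matched windows these differences were of similar size, at 7.37 and 5.42 points. Repeats made up 36.2% of the dyads of Olfr windows against 27.6% in the matched windows. In the receptors, repeat CpGs and other CpGs stood at 68.9% and 68.7%.

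Class I receptors were on average more methylated than class II receptors, within the range of class II clusters. Class I was taken as the 129 members of the cluster at chr7:102476579-105369355, and the receptor family numbers in the RefSeq names placed 125 of them in class I families, against 6 of the other members. Class I windows averaged 71.5% and 63.6% in the Tet2+/+ libraries and 74.6%, 81.1% and 71% in the Tet2-/- libraries, and the 997 autosomal class II windows 66.3% and 59.9% against 69.8%, 74.6% and 64.4%. Class I lay above class II in each of the 5 libraries, by 5.24, 3.70, 4.72, 6.48 and 6.58 points, a mean of 5.34 (exact sign-flip permutation p = 0.063). At the TSS the mean excess was 4.69 points. Class I differed between genotypes by 7.97 points and class II by 6.51, and the difference of 1.46 between these was within the spread (exact permutation p = 0.3). It was 0.689 without library 24 and 0.359 with no flank, and at the TSS it had the opposite sign, at -1.55 points. All class I genes share 1 stretch of chromosome, so that class and place cannot be told apart. The mean of this cluster over the libraries was 72.4%. Class II clusters above it were Olfr221 to Olfr1507 (79.3%), Olfr433 to Olfr220 (78.8%), Olfr211 to Olfr215 (78.5%), Olfr56 to Olfr1380 (75.6%) and Olfr693 to Olfr716 (73.6%). The rest of those with at least 5 tested members were below it. The classes were not matched for CpG number.

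**Figure D5:**
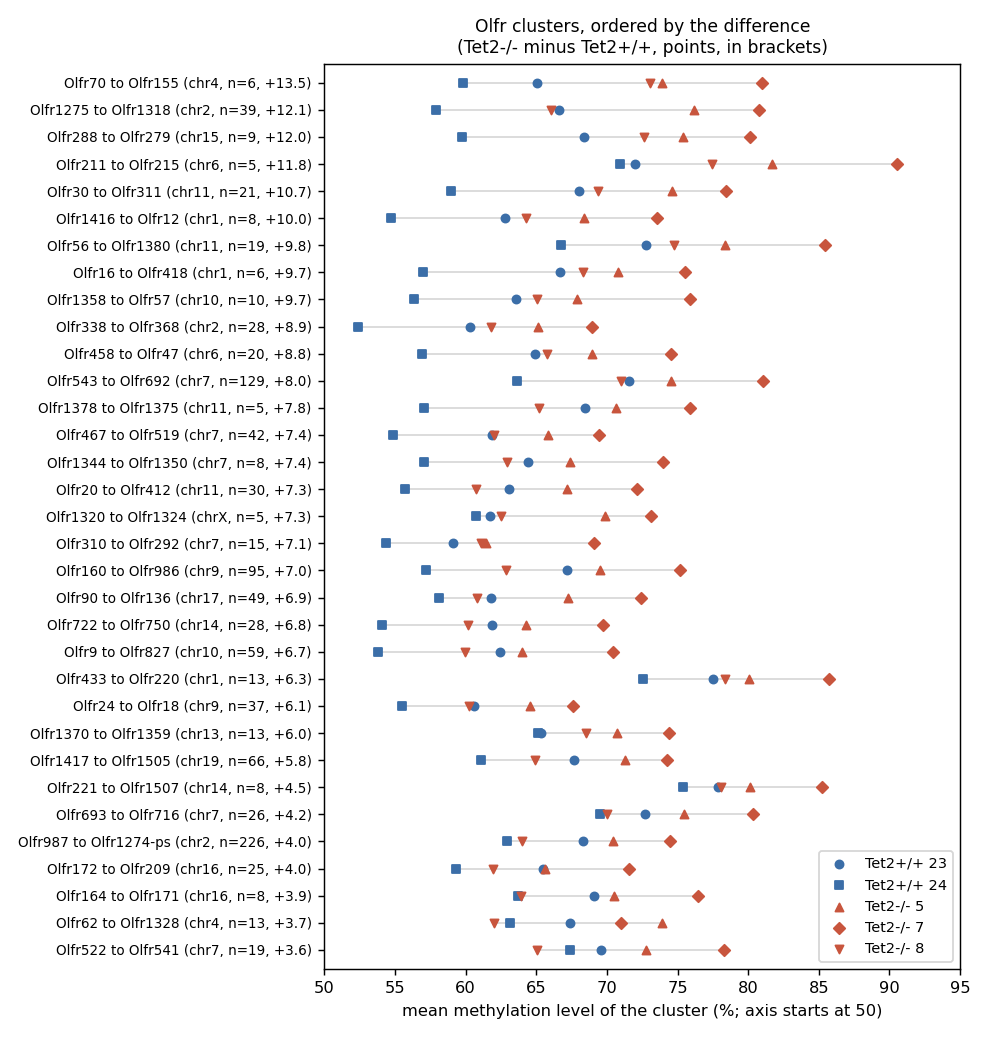
Mean methylation level in percent (x axis, which starts at 50) of the 33 Olfr clusters with at least 5 tested members (rows, named by first and last gene, with the number of tested members and the difference in points), 1 marker per library, blue for Tet2+/+ and red for Tet2-/-. The Tet2-/- mean was higher in all 33, by 3.59 to 13.5 points, and in 16 clusters the groups did not overlap.

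Receptors less than 500 kb apart were joined into 55 clusters, of which 9 held 1 gene. The 33 with at least 5 tested members hold 1092 receptors, and their mean level ran from 61.0% (Olfr310 to Olfr292 on chromosome 7) to 79.3% (Olfr221 to Olfr1507 on chromosome 14). The Tet2-/- mean was above the Tet2+/+ mean in all 33, by 3.59 to 13.5 points (median 7.27). The groups did not overlap in 16, beside 49.7% of all single windows and 38.6% of those of like CpG number, and 19 held at least 1 window that rose. The same libraries set the order: library 24 was the lowest in 31 clusters and library 7 the highest in 32. Library 8 was below library 23 in 17 clusters, among them 9 of the 10 with at least 30 members.

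The calls counted here for clusters stand beside the 19.3% of all windows and the 6.45% of windows of like CpG number that rose, and none was left without library 24. The widest difference was in the small cluster from Olfr70 to Olfr155 on chromosome 4, which holds Olfr156. Its levels were 65.1% and 59.8% in the Tet2+/+ libraries and 73.9%, 81.0% and 73.0% in the Tet2-/- libraries (13.5 points), and 4 of its 6 windows rose. In the cluster from Olfr1275 to Olfr1318 on chromosome 2 the values were 66.6% and 57.9% against 76.2%, 80.7% and 66.1% (12.1 points), and 10 of 39 windows rose, although library 8 was below library 23. The cluster from Olfr288 to Olfr279 on chromosome 15 had 68.4% and 59.7% against 75.4%, 80.1% and 72.7% (12.0 points), and 7 of 9 windows rose. It was also the most deeply covered of the 33, with 4.16 to 8.20 calls per dyad.

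A further pair of clusters had a large difference and several calls. From Olfr211 to Olfr215 on chromosome 6 the difference was 11.8 points and 4 of 5 windows rose, and from Olfr30 to Olfr311 on chromosome 11 it was 10.7 points and 8 of 21 rose. By contrast, the largest cluster of the genome, from Olfr987 to Olfr1274-ps on chromosome 2, had 68.3% and 63.0% against 70.5%, 74.4% and 64.0%. Its difference was 4.01 points, and 1 of 226 tested windows rose. This cluster had 2.07 to 3.43 calls per dyad, and the one from Olfr1275 to Olfr1318 had 2.13 to 3.72. The part of depth in these counts was not tested. The smallest difference was 3.59 points, from Olfr522 to Olfr541 on chromosome 7. Without library 24 the difference was 7.72 points from Olfr1275 to Olfr1318, 7.67 from Olfr288 to Olfr279, 6.13 from Olfr30 to Olfr311 and 1.34 from Olfr987 to Olfr1274-ps, and without library 7 it was 0.463 from Olfr522 to Olfr541 and 1.61 from Olfr987 to Olfr1274-ps. No test compared clusters with each other.

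Other chemosensory receptor families had similar levels. The 178 Vmn1r windows, vomeronasal receptors for small molecules, had 64.0% and 57.8% against 66.8%, 72.0% and 61.8%, a difference of 5.98 points (exact permutation p = 0.3). The 114 Vmn2r windows differed by 4.31 points (exact permutation p = 0.4). The 15 trace amine receptor (Taar) windows had 68.8% and 60.2% against 75.8%, 83.5% and 70.9%, a difference of 12.2 points (exact permutation p = 0.2), and the 35 bitter receptor (Tas2r) windows differed by 9.55 (exact permutation p = 0.2). In Taar and Tas2r windows every Tet2-/- library lay above both Tet2+/+ libraries, while in Vmn1r and Vmn2r windows the groups overlapped. None of these exact tests could give a p under 0.1. Leaving out library 24 lowered the difference to 2.85 points in Vmn1r, 2.12 in Vmn2r, 7.91 in Taar and 5.89 in Tas2r windows.

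Genes that act with the receptors were taken as a pair of fixed lists. Of 16 genes of olfactory signalling, 4 windows rose by edgeR's test and none fell, and of 13 genes of receptor choice 3 rose and none fell, beside the 19.3% of all windows that rose. The signalling windows were those of Rtp2 (18.6 points) and Rtp1 (11.8), which carry receptors to the cell surface, and of the channel subunits Cnga4 (15.2) and Cngb1 (8.25). Of the 16 TSS regions only that of Pde1c, a phosphodiesterase that removes cyclic AMP, rose, beside 1.06% of all TSS regions. Its level was 18.0% and 12.1% in the Tet2+/+ libraries and 37.6%, 41.7% and 43.6% in the Tet2-/- libraries, a difference of 25.9 points (edgeR adjusted p = 0.031). In the receptor choice list, the windows of the transcription factors Ebf4 (12.4 points), Lhx2 (10.1) and Emx2 (9.77) rose, and none of the 13 TSS regions did. The median TSS level of this second list was 6.51%, and no TSS region of either list fell. Of the 7 window calls in both lists, 0 were left without library 24 and 0 with limma, and the call of Pde1c was lost without library 23, 24, 7 or 8 and with limma.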

How the data were processed

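Per the labels and the study's methods, DNA from sorted blasts was bisulfite converted with EZ-DNA Methylation Gold, made into libraries with Pico Methyl-Seq and sequenced on a NextSeq 500. The submitters' processing notes name FastQC 0.11.7, Trim Galore 0.4.3, Bismark 0.19.1, Bowtie2 and the build GRCm38 (mm10). The authors deposited, for each library, counts of methylated and unmethylated reads at every CpG cytosine. The counts of the strands of each CpG were joined into 1 dyad and summed over gene windows (gene with 5 kb on each side) and TSS regions (1 kb on each side) of GENCODE vM21. Regions needed 20 calls in every library. Mitochondrial calls were methylated at 0.807 to 0.989%, which bounds failed conversion.

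Gene windows were tested with edgeR 4.0.16 (quasi-likelihood, library and methylation by genotype coefficients, Benjamini-Hochberg over all regions, threshold 0.05), with limma 3.58.1 as an alternative (R 4.3.3). Means over members were compared by the exact two-sided permutation test over libraries, and values paired within a library by sign flips. Other genes were matched in 10 classes of dyad number. Python 3.11.15, numpy 2.4.6 and pandas 2.3.3 were used. The text names, in each direction, up to 10 windows and up to 5 TSS regions that passed with the largest non-overlapping difference, the 5 lowest and 5 highest windows, a fixed list of receptors, and Olfr1033. Olfr151 of that list was not matched. The members and lists were chosen with earlier results of these data known. Alternatives left out each library or changed the minimum, flank, region, matching, pooling or test. Of the markers of cells that the sorting gate removes, only Cd3e and Cd3g are given; the rest of that list is not reported here.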

Additional observations from a re-analysis of the deposited data

How the results depend on the processing

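The mean Olfr levels against matched genes over windows and TSS regions, and the mean Olfr differences between genotypes over them, kept their direction under every alternative run. The comparisons of gain with matched genes did not. Nor did the mean level against matched genes in the 500 bp after the TSS. That mean turned without the class of the most CpGs, though single libraries then had either sign. For Olfr windows that gain difference (-0.20 points) became 0.333 without library 8, 0.354 with calls pooled and 0.390 with matching on CpG density, and ranged from -0.529 to 0.333 with libraries left out. For TSS regions (0.757) it became -0.269 without library 24 and ranged from -0.269 to 1.86. The cause was not tested. The count of Olfr windows that rose (81) ranged from 0 to 132 with libraries left out, and was 0 with limma, 0 with limma after median subtraction and 50 with no flank. The 50 with no flank were 4.92% of the 1016 Olfr windows tested there, beside 15.5% of all windows. Without library 24 the Tet2+/+ group is 1 library, assumed to vary like the others. The count of TSS regions (2) ranged from 0 to 1 with libraries left out, and was 0 with at least 50 calls, 0 with limma, 0 with limma after median subtraction, 0 with 500 bp on each side, 10 with edgeR's likelihood ratio test and 5 around the start codon. With the likelihood ratio test 2.72% of Olfr TSS regions rose, beside 5.35% of all TSS regions. Around the start codon it was 0.726%, beside 1.88% of all, and with 500 bp on each side 0.575% of all rose. Olfr1328 fell with no flank and with 10 kb flanks. No Olfr window or TSS region passed with limma or without library 24, so each named call of these was lost. With a library left out, the differences of Olfr1507 ranged from -0.0210 to 6.60 (window) and from -6.62 to 2.91 (TSS, 1.97 without library 24), and that of the Olfr1033 window from -0.809 to 4.85. The 50 classes, the sets without the class of the most CpGs, the joined windows, and all alternatives for the signalling and receptor choice lists, clusters, other chemosensory families and the level before the TSS were chosen after seeing the data. No paired analysis was possible because the Tet2+/+ libraries (23 and 24) and the Tet2-/- libraries (5, 7 and 8) share no replicate number.

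Depth limits the receptors most at the TSS, where 768 of 1135 had under 20 calls in some library. With 2 against 3 libraries no exact test could pass 0.05, and leaving out library 24, the lowest in most receptors, lowered the window difference to 3.40 points.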
